A study of Canis lupus familiaris with 18 samples.

Results

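The 4 genes described here, ENSCAFG00000006164, ENSCAFG00000000640, ENSCAFG00000018917 and ENSCAFG00000015499, were chosen by their difference between high light and dark in parental MDCKI cells, which carry no light-activated cyclase. They are 4 of the 32220 dog gene IDs in the count tables and 4 of the 8530 genes that passed the filter on low counts. MDCKI is an epithelial line from dog kidney, and the second line carried bPAC, a bacterial adenylyl cyclase switched on by blue light. Both lines grew in medium with 0.5% serum and no phenol red. For 2 h, starting 16 h after plating, they received no light, a low dose or a high dose. Parental cells gave 3 libraries in the dark, 3 at the low dose and 2 at the high dose. Cells with bPAC gave 3, 4 and 3. The sources used here do not give the wavelength or strength of the light, how bPAC was introduced or whether that line is 1 clone. The tables hold dog gene IDs without symbols, and none of them (0 of 32220) was found in the gene table at hand. The 4 genes therefore appear by ID, no role can be given for them, and neither the kidney epithelial identity of the cells nor the cyclase transcript was checked.

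Cyclic AMP is a second messenger that releases the catalytic subunits of protein kinase A. In the nucleus the kinase phosphorylates CREB, which raises transcription of genes with cyclic AMP response elements, and in kidney epithelium the pathway acts on water and ion transport and on growth. Cells with bPAC make cyclic AMP when illuminated, while the parental line receives the same light without the enzyme. The 2 lines together address whether a change seen under light is also present without the cyclase.

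Gene reads numbered 2638511 to 9610144 per library, with 10617 to 12594 genes detected. Reads with several alignments took 37.5% to 44.4% of a library, and the highest shares were in parental high light 2 (44.2%) and bPAC high light 3 (44.4%). The labels give no batch, day or pairing, and the library numbers are names only. The labels do not say whether the libraries of a group are separate cultures. The p-values therefore cover only the spread between libraries, part of which may be technical. Levels below are CPM, gene reads scaled to a common library size with TMM factors, and folds come from 1 edgeR model of all 18 libraries. A gene is called where its adjusted p is under 0.05. These are bulk samples, in which fewer cells with a transcript and less of it per cell cannot be told apart.

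Between high light and dark in parental cells 15 of the 8530 genes were called, or 0.176%, with 12 higher and 3 lower. In parental low light against the same dark libraries 976 were called. The high dose had only 2 libraries, so these counts do not rank the doses. All 4 genes described here are among the 15, because the high light comparison chose them. Their parental values are therefore given as a description without a test. The fitted log2 fold change was 2.89 (SE 0.29) for ENSCAFG00000006164 and 3.34 (SE 0.52) for ENSCAFG00000000640. It was -1.46 (SE 0.25) for ENSCAFG00000018917 and -1.91 (SE 0.38) for ENSCAFG00000015499. ENSCAFG00000015499 lay close to the limit, at an edgeR adjusted p of 0.0491. The last called gene, ENSCAFG00000012406, stood at 0.0491 with a 2.10-fold increase. The first gene past it, ENSCAFG00000029911, stood at 0.0514 with a 2.89-fold increase. The count of 15 lay between 2 and 37 when any 1 of the 18 libraries was left out. It was 118 with DESeq2's test, 227 without a filter, 236 with 1 surrogate variable, 4 with limma-voom and 2 in a fit of the parental line alone. No bPAC library is in either of the groups that chose the genes, but the filter and the spread come from all 18 libraries. The count was 5 without bPAC dark 1 and 37 without bPAC low light 4, so the choice was not fully independent of the bPAC libraries. The light responses of bPAC cells were tested with this limit.

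ENSCAFG00000006164 stood higher at each step of light in both lines and reached about the same level at high light in each. In parental cells its level was 120.2, 129 and 127 CPM in the dark, 234, 246 and 192 CPM in low light, and 1172 and 690.1 CPM in high light. The 3 parental groups did not overlap, and the high light libraries differed from each other by more than the whole range of the low light group. In bPAC cells the level was 202, 225 and 377 CPM in the dark. It was 482, 552, 559.9 and 518 CPM in bPAC low light, and 754, 702 and 1367 CPM in bPAC high light. Again the libraries of different doses did not overlap. The share of all tested genes with doses apart in this way was not counted.

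In bPAC cells ENSCAFG00000006164 rose 1.97-fold from dark to low light (log2 fold change 0.98, SE 0.25, edgeR adjusted p = 0.00585). It rose 3.51-fold from dark to high light (log2 fold change 1.81, SE 0.26, edgeR adjusted p = 0.000242). All 7 illuminated libraries stood above all 3 dark ones, but the share of all tested genes separated in this way was not counted. Both steps from the dark were called in a background where 35.3% of the tested genes were called at low light and 24.6% at high light. With 1 surrogate variable the low light count was 337 genes in place of 3009. The step from low to high light was 1.78-fold (log2 fold change 0.83, SE 0.24, edgeR adjusted p = 0.0326), in a comparison where 10.2% of genes were called. Without bPAC high light 3, the library at 1367 CPM, the log2 fold change of this last step was 0.46 (edgeR adjusted p = 0.218). The call was also lost, with the size nearly kept or larger, without bPAC low light 1 (log2 fold change 0.79, edgeR adjusted p = 0.0725), bPAC low light 4 (0.82, 0.0639) or bPAC high light 1 (0.97, 0.0600), and in the model of bPAC libraries alone (0.78, 0.0850).

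The lines started from different dark levels of ENSCAFG00000006164, 126 ± 4.73 CPM in parental and 268 ± 94.9 CPM in bPAC cells (SD, n = 3 each). Every dark bPAC library lay above every dark parental one. The parental dark and high light libraries chose the gene, so differences between the lines at these doses are partly fixed by the choice. At low light the means were 224 ± 28.2 CPM (SD, n = 3) in parental and 528 ± 35.6 CPM (SD, n = 4) in bPAC cells. At high light they were 931 ± 341 CPM (SD, n = 2) and 941 ± 370.2 CPM (SD, n = 3), and these ranges overlapped. In the order of all 6 groups, parental dark came lowest, and parental low light and bPAC dark overlapped as neighbours. Next came bPAC low light, apart from its neighbours, and then both high light groups.

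**Figure D1:**
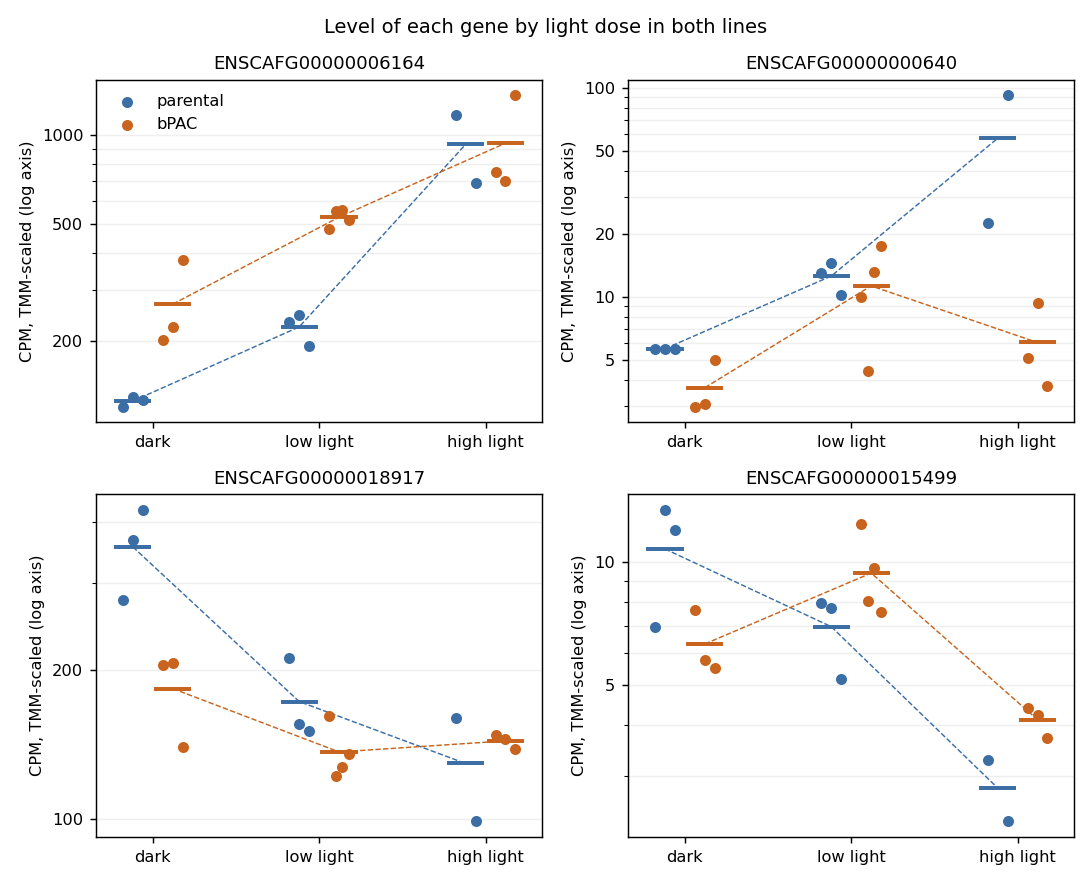
Level of each of the 4 genes in every library (points) in CPM on a log axis against light dose, with horizontal bars for group means and dashed lines joining the doses of a line. ENSCAFG00000006164 climbs with dose in both lines to means of 931 and 941 CPM, while ENSCAFG00000000640 reaches 22.5 and 92.0 CPM in parental high light and no more than 9.33 CPM in bPAC high light.

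ENSCAFG00000000640 stood higher at each dose in parental cells but was highest at the low dose in bPAC cells. In parental cells it stood at 5.63, 5.63 and 5.65 CPM in the dark and at 12.9, 14.6 and 10.2 CPM in low light. In parental high light it stood at 22.5 CPM in library 1 and 92.0 CPM in library 2. The 3 doses did not overlap in the parental line, but the 2 high light libraries differ so much that the size of the last step is poorly fixed. The parental log2 fold change against dark was 1.96 without high light 2 and 4.03 without high light 1. Reads with several alignments took 38.9% of library 1 and 44.2% of library 2. The part of this share in the level of ENSCAFG00000000640 was not tested.

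The near identity of the 3 dark parental values of ENSCAFG00000000640 is closer than their counts warrant. They rest on 56, 21 and 25 reads, and the exact Poisson 95% interval of the library with 21 reads runs from 3.49 to 8.61 CPM. That interval covers counting error only.

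In bPAC cells ENSCAFG00000000640 stood at 2.98, 3.06 and 4.98 CPM in the dark. It stood at 10.02, 4.44, 13.2 and 17.4 CPM in bPAC low light and at 5.07, 9.33 and 3.72 CPM in bPAC high light. From dark to low light it rose 3.07-fold (log2 fold change 1.62, SE 0.51, edgeR adjusted p = 0.0205), although low light 2 lay within the dark range. The call was lost with 1 surrogate variable in the model (log2 fold change 1.02, adjusted p = 0.370), with limma-voom (adjusted p = 0.0900), and without bPAC dark 1 (0.0726), bPAC dark 2 (0.0787) or bPAC low light 4 (0.0698). From dark to high light the fitted fold was 1.65, with a 95% interval from 0.733 to 3.73, and was not called (edgeR adjusted p = 0.363). The parental fitted fold was 10.1. From low to high light the log2 fold change was -0.89 (SE 0.48, edgeR adjusted p = 0.245), also not called.

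At low light the libraries of the lines overlapped for ENSCAFG00000000640, with means of 12.6 ± 2.22 CPM (SD, n = 3) in parental and 11.3 ± 5.48 CPM (SD, n = 4) in bPAC cells. At high light they stood apart, at 57.2 ± 49.1 CPM (SD, n = 2) and 6.04 ± 2.93 CPM (SD, n = 3). The lowest parental high light library was above every bPAC library of any dose. The parental high light libraries helped choose the gene, so this gap is partly fixed by the choice. In the order of group means bPAC dark came lowest, followed by parental dark, bPAC high light, bPAC low light, parental low light and parental high light. From parental dark to parental low light each neighbour in this order overlapped with the next.

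ENSCAFG00000018917 was lower under light in parental cells, from a dark level that bPAC cells did not share. Its parental levels were 277, 367 and 422 CPM in the dark, 212, 156 and 151 CPM in low light, and 160.2 and 99.0 CPM in high light. All 5 illuminated parental libraries were below all 3 dark ones, and the low and high doses overlapped. In bPAC cells it stood at 205, 207 and 139.8 CPM in the dark, where dark 3 was the low library. The bPAC low light libraries held 161, 122, 128 and 135 CPM, and the bPAC high light libraries 148, 145 and 139 CPM. Dark 3 thus lay inside the range of the illuminated bPAC libraries.

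In bPAC cells ENSCAFG00000018917 was not called at any step. From dark to low light its log2 fold change was -0.43 (SE 0.20, edgeR adjusted p = 0.101), with a 95% interval of the fold from 0.558 to 0.993. From dark to high light it was -0.35 (SE 0.21, edgeR adjusted p = 0.241), with an interval from 0.575 to 1.07. From low to high light it was 0.07 (SE 0.20, edgeR adjusted p = 0.851), with an interval from 0.788 to 1.41. Without bPAC dark 3 the low light change was -0.59 and was called (edgeR adjusted p = 0.0443).

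Between the lines, the difference in ENSCAFG00000018917 lay in the dark, at 355 ± 73.1 CPM in parental and 184 ± 38.1 CPM in bPAC cells (SD, n = 3 each), with no overlap. The parental dark libraries helped choose the gene as lower in high light, so this difference is partly fixed by the choice. Under light the lines overlapped at both doses. The means at low light were 173 ± 34.1 CPM (SD, n = 3) in parental and 137 ± 17.4 CPM (SD, n = 4) in bPAC cells. At high light they were 129.6 ± 43.3 CPM (SD, n = 2) and 144 ± 4.97 CPM (SD, n = 3). Parental dark was the highest of the 6 groups and stood apart from the next, bPAC dark.

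ENSCAFG00000015499 had a lower mean at each dose in parental cells and its lowest mean at high light in both lines. It is the least deeply counted of the 4 genes, with 9 to 69 reads per library. Its parental levels were 6.94, 13.4 and 11.98 CPM in the dark, 7.94, 7.74 and 5.19 CPM in low light, and 3.29 and 2.33 CPM in high light. The parental high light libraries hold 13 and 10 reads and lay below all other libraries of the series. Dark 1, the most deeply sequenced library of all, overlapped with low light. In bPAC cells the levels were 7.66, 5.77 and 5.51 CPM in the dark, 12.4, 8.03, 9.66 and 7.54 CPM in low light, and 4.41, 4.24 and 3.72 CPM in high light.

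The step from low to high light was the 1 called change of ENSCAFG00000015499 in bPAC cells. It fell 2.24-fold there (log2 fold change -1.16, SE 0.31, edgeR adjusted p = 0.0246), with no overlap between the 4 low and the 3 high light libraries. How many tested genes lack such overlap was not counted. The adjusted p rose above the threshold without bPAC low light 1 (0.0621), bPAC high light 1 (0.0969), bPAC high light 2 (0.0618) or bPAC high light 3 (0.0631), and in a fit of these 2 groups alone (0.0550), while the log2 fold change stayed between -1.27 and -0.998 over the left-out libraries. Against the dark, the low light change was 0.55 (SE 0.29, edgeR adjusted p = 0.144), with a 95% interval of the fold from 0.962 to 2.24. The high light change was -0.61 (SE 0.33, edgeR adjusted p = 0.192), with an interval from 0.405 to 1.07. All 3 high light libraries lay below all 3 dark ones, but the share of all tested genes separated in this way was not counted.

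The mean of ENSCAFG00000015499 in parental cells was 10.8 ± 3.40, 6.96 ± 1.53 and 2.81 ± 0.680 CPM in dark, low and high light (SD, n = 3, 3 and 2). In bPAC cells it was 6.31 ± 1.18, 9.41 ± 2.19 and 4.13 ± 0.361 CPM (SD, n = 3, 4 and 3). The lowest groups were parental high light and then bPAC high light, each with a library range apart from its neighbours. The gap between these groups rests on few reads. Parental high light 1, with 13 reads, has an exact Poisson 95% interval from 1.75 to 5.63 CPM. All bPAC high light values fall inside that interval. The other 4 groups overlapped from each to the next, in the order bPAC dark, parental low light, bPAC low light and parental dark. The parental dark and high light libraries chose the gene, so their places in this order are partly fixed by the choice.

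The responses of the lines can be set side by side. The difference in response, bPAC minus parental on the log2 scale, contains the parental values that chose the genes, so it is given with its SE and without a test. At high light against dark it was -1.08 (SE 0.38) for ENSCAFG00000006164, -2.61 (SE 0.77) for ENSCAFG00000000640, 1.10 (SE 0.32) for ENSCAFG00000018917 and 1.30 (SE 0.51) for ENSCAFG00000015499. For each gene the fitted bPAC change had the parental sign and was the smaller of the 2 in size. The genes were chosen for their parental change, so this order of sizes is partly fixed by the choice. Without parental high light 2 the difference for ENSCAFG00000000640 was -1.26, and without parental high light 1 that for ENSCAFG00000006164 was -0.66.

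At low light against dark the difference in response was 0.14 (SE 0.35) for ENSCAFG00000006164 and 0.46 (SE 0.70) for ENSCAFG00000000640. It was 0.61 (SE 0.29) for ENSCAFG00000018917 and 1.16 (SE 0.42) for ENSCAFG00000015499. For the genes that were higher in parental high light, the parental log2 fold changes at low light were 0.84 (SE 0.26) and 1.15 (SE 0.49), beside bPAC values of 0.98 and 1.62. From low to high light the log2 fold change of ENSCAFG00000006164 was 2.05 (SE 0.28) in parental and 0.83 (SE 0.24) in bPAC cells. That of ENSCAFG00000000640 was 2.19 (SE 0.50) and -0.89 (SE 0.48). For ENSCAFG00000015499 it was -1.30 (SE 0.39) and -1.16 (SE 0.31) over the same step. The parental dark and high light libraries chose the genes, so the parental sizes at these steps are partly fixed by the choice. Leaving out 1 parental high light library gave a parental step from low to high light of 0.82 or 2.87 for ENSCAFG00000000640. For ENSCAFG00000006164 it gave 1.63 or 2.37.

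**Figure D2:**
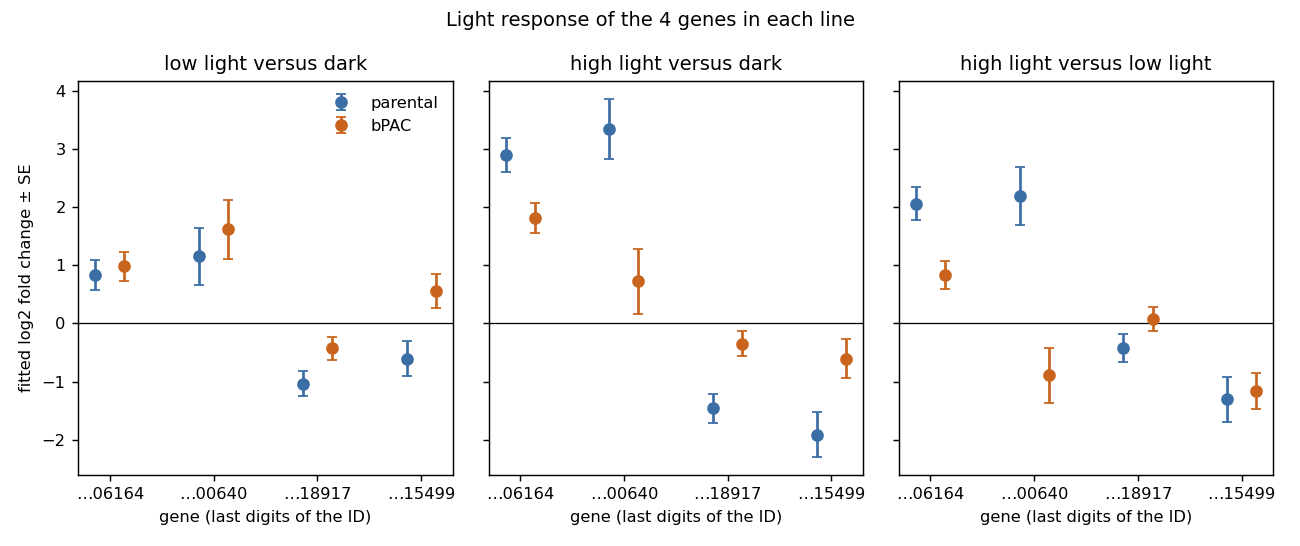
Fitted log2 fold change with its SE (vertical axis) for each gene (horizontal axis, last digits of the ID) in parental and bPAC cells, for low light versus dark, high light versus dark and high versus low light. At high light versus dark every bPAC value lies nearer to 0 than the parental one, from 1.81 against 2.89 for ENSCAFG00000006164 to -0.35 against -1.46 for ENSCAFG00000018917.

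Of the 4 genes, 2 were called in bPAC low light versus dark (background 35.3%), 1 in bPAC high light versus dark (24.6%) and 2 in bPAC high versus low light (10.2%). Only ENSCAFG00000006164 was called in all 3 of these comparisons, and the share of all tested genes called in all 3 was not counted. The other 11 genes called in parental high light give a wider view. Among the 10 of them that were higher in parental high light, 10 were called higher in bPAC high light, with a median log2 fold change of 1.62. Over all tested genes 12.7% were called higher there and the median was 0.03. In bPAC low light 9 of these 10 were called higher, against 17.2% of all tested genes. From bPAC low to high light 3 of these 10 were called higher, against 5.18% of all tested genes. Their median log2 fold change over that step was 0.40. In parental cells the log2 fold change from low to high light ran from -0.81 (ENSCAFG00000030114) to 1.07 (ENSCAFG00000017937) among these 10. The 1 remaining gene, lower in parental high light, was called lower in bPAC low and high light against the dark. The groups compared in the 2 lines share no library, but both comparisons come from 1 model of all 18. In it each gene has 1 spread for both lines, so a gene with a small spread is more easily called in both. The shares over all tested genes are therefore not a matched background for this list. The list itself was not independent of the bPAC libraries, since it held 5 to 37 genes on leaving out 1 of them. ENSCAFG00000000640 was the 1 gene of the 12 not called higher in bPAC high light. Its log2 fold change there was 0.73 (SE 0.56), on 31, 33 and 9 reads in the high light libraries. ENSCAFG00000005877, with a similar change of 0.78, was called (edgeR adjusted p = 0.0183). ENSCAFG00000018917 and ENSCAFG00000015499 were 2 of the 3 lower genes and were not called lower in bPAC high light.

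**Figure D3:**
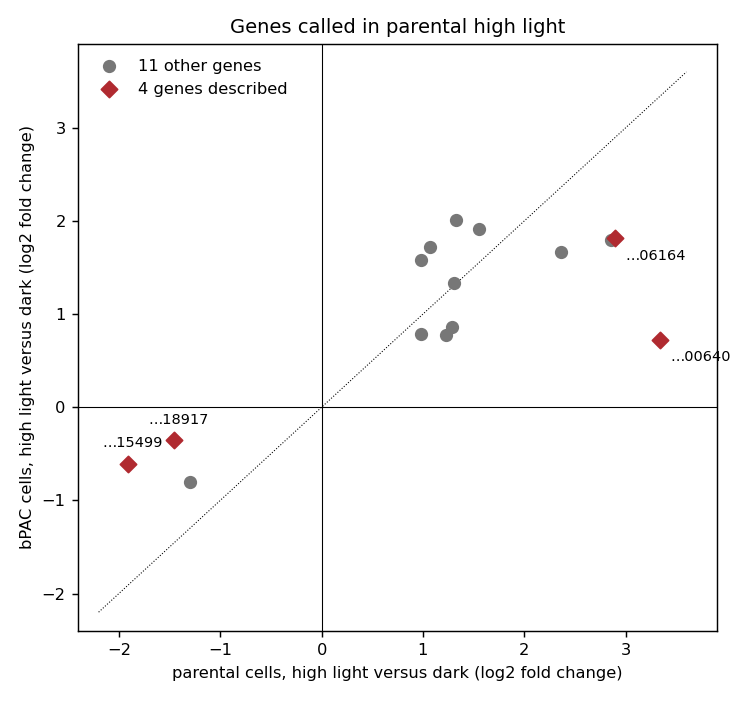
Log2 fold change of high light versus dark in parental cells (horizontal) and bPAC cells (vertical) for the 15 genes called in parental cells, with a dotted line of equal change. The 12 genes higher in parental cells all lie above 0 in bPAC cells, as did 51.9% of all tested genes. ENSCAFG00000000640 has the lowest value of the 12 (0.73), close to that of ENSCAFG00000005877 (0.78). The 3 lower genes all lie below 0. The list was not fully independent of the bPAC libraries.

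Across the 18 libraries the 4 genes did not follow 1 pattern. On log2 CPM, Pearson's r was 0.31 between ENSCAFG00000006164 and ENSCAFG00000000640, the 2 genes higher in parental high light, and -0.34 after the group means were removed. Between ENSCAFG00000018917 and ENSCAFG00000015499, the 2 lower genes, it was 0.59, and 0.73 after the group means were removed. The lower genes therefore also moved together among libraries of the same group. These values describe libraries that share lines, doses and preparation, and genes that were chosen for a common direction.

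The genes whose log2 CPM was most like each of the 4, out of 8529 compared over the 18 libraries, are named by ID. They were picked for likeness over these same libraries. Any pattern of levels they share with the 4 genes is therefore partly fixed by the pick. For ENSCAFG00000006164 they were ENSCAFG00000008875 (r = 0.84) and ENSCAFG00000029846 (r = 0.83). Without the group means r was 0.50 and -0.03. ENSCAFG00000029846 stood at 11.4 ± 4.46, 15.1 ± 1.84 and 23.8 ± 0.717 CPM in parental dark, low and high light (SD, n = 3, 3 and 2). In bPAC cells it stood at 16.7 ± 1.04, 21.2 ± 2.01 and 27.6 ± 3.82 CPM (SD, n = 3, 4 and 3), so its mean also went up with each dose in both lines.

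For ENSCAFG00000000640 the nearest genes were ENSCAFG00000016286 (r = 0.88) and ENSCAFG00000016632 (r = 0.83), with r of 0.84 and 0.63 without the group means. ENSCAFG00000016286 stood at 1075 ± 625 CPM (SD, n = 2) in parental high light and 265 ± 39.0 CPM (SD, n = 3) in bPAC high light, so its 2 parental high light libraries were also far apart. For ENSCAFG00000018917 they were ENSCAFG00000002628 (r = 0.87) and ENSCAFG00000010974 (r = 0.85). ENSCAFG00000002628 is the third gene called lower in parental high light. It stood at 421 ± 88.4 CPM in parental dark and 189 ± 25.7 CPM in bPAC dark (SD, n = 3 each), the same order of the dark groups as for ENSCAFG00000018917. The same comparison called both genes lower in parental high light, so this shared order is partly fixed by that comparison and by the pick for likeness. For ENSCAFG00000015499 they were ENSCAFG00000001976 (r = 0.86) and ENSCAFG00000012009 (r = 0.84). ENSCAFG00000001976 had its highest mean in bPAC low light, at 133 ± 14.9 CPM (SD, n = 4), and stood at 64.2 ± 3.86 CPM (SD, n = 3) in bPAC high light and 61.5 ± 28.0 CPM (SD, n = 2) in parental high light.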

How the data were processed

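Lexogen's SPLIT kit was used for RNA extraction and its QuantSeq 3' FWD kit for library preparation, per the labels' protocols. The authors deposited whole-number read counts per gene, not normalised, for each library. Per the submitters' processing notes, the genome build was CanFam3.1. The sources used here give neither aligner, counter nor annotation release. Transcripts that end beyond their annotation, and reads with several alignments, are missing from these counts. The 5 rows without a gene (66.1% to 70.6% of reads) stayed out of library sizes and tests. All 19 pairs of libraries within groups differed beyond counting noise (chi-square divided by its degrees of freedom 6.04 to 44.3).

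All 18 libraries entered 1 model of 6 groups in edgeR 4.0.16 (filterByExpr at a minimum count of 10, TMM, robust glmQLFit, glmQLFTest, R 4.3.3), with Benjamini-Hochberg adjustment over 8530 genes. Dividing the size of a log2 fold change by the root of its F statistic gave its SE. Log2 CPM used a prior count of 2. The fit was checked on counts drawn with known folds. Alternatives were DESeq2 1.42.0 (size factors, or its test), limma-voom (limma 3.58.1), other filters, fewer groups, 1 surrogate variable (sva 3.50.0) and leaving out each library. The 4 genes and all rules were chosen with earlier results of these data known. Further genes named are those at the limit of the rule and the 2 most correlated with each gene. Marker and pathway lists were not used, since IDs could not be paired with symbols.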

Additional observations from a re-analysis of the deposited data

Results flagged for a closer look

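The low light libraries of ENSCAFG00000015499 lay on opposite sides of the dark mean in the 2 lines. The share of all tested genes with this pattern was not counted. All 3 parental low light libraries lay below the mean of the parental dark libraries, at 0.482 to 0.737 times its value. All 4 bPAC low light libraries lay above the mean of the bPAC dark libraries, at 1.20 to 1.97 times its value. Low light and dark libraries nevertheless overlapped in both lines, with parental dark 1 at 6.94 CPM below parental low light 1 and 2 at 7.94 and 7.74 CPM. The bPAC change was not called (edgeR adjusted p = 0.144, 95% interval of the fold from 0.962 to 2.24), and the parental change is a description. The difference in log2 fold change, bPAC minus parental, was 1.16 (SE 0.42). The difference was not tested, because it contains the parental dark libraries by which the gene was chosen, and it rests on 93 reads in parental and 171 reads in bPAC low light. It lay between 0.99 and 1.43 on leaving out any 1 library. None of the 4 genes had an outlying library in bPAC low light, the 1 group with 4 libraries.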

How the results depend on the processing

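The 12 tested member results were each recomputed under 8 other settings and without each of the 18 libraries, which gave 312 results. Of these, 293 kept direction and side of the threshold, including many that were not called to begin with. All 17 lost calls were those of ENSCAFG00000006164 between the bPAC doses, ENSCAFG00000000640 in bPAC low light and ENSCAFG00000015499 between the bPAC doses. ENSCAFG00000006164 kept its calls against the dark at both doses throughout, with adjusted p between 7.63e-05 and 0.0349 at low light and at most 0.00292 at high light. Its call between high and low light was lost in fits of only the groups compared (log2 fold change 0.81), of only the bPAC line (0.78) and with 1 surrogate variable (0.73), and ran from 0.46 to 1.01 over left-out libraries. ENSCAFG00000000640 in bPAC low light was not called with limma-voom (1.48) or 1 surrogate variable (1.02), and ran from 1.30 to 1.90. ENSCAFG00000015499 between the bPAC doses was not called with only these groups (-1.19), and ran from -1.27 to -0.998. ENSCAFG00000018917 in bPAC low light was -0.70 with 1 surrogate variable and ran from -0.59 to -0.33 over left-out libraries. Between the bPAC doses it was 0.20 with 1 surrogate variable and ran from -0.024, a change of sign without bPAC low light 2, to 0.16 over left-out libraries. The cause was not tested, except that fits of fewer groups hold fewer libraries.

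The number of genes called in parental high light versus dark, 15 with all libraries, was 7 with DESeq2's size factors, 118 with its test, 4 with limma-voom, 227 without a filter and 6 with a mean of at least 5 CPM. It was 2 with only the groups or only the line compared, 236 with 1 surrogate variable, and 2 to 37 over left-out libraries. Between parental high and low light, where 1 gene was called, DESeq2 called 32 and the fit without a filter 52, and left-out libraries gave 0 to 3, with 0 without parental low light 1. At that comparison 1080 genes had an unadjusted p under 0.05. In bPAC low light 337 genes were called with 1 surrogate variable and 1734 to 3260 over left-out libraries. Between the bPAC doses 273 were called with only the groups and 447 with only the line compared, and 189 to 899 over left-out libraries. Left-out libraries gave 242 to 1248 in parental low light and 937 to 2357 in bPAC high light. In bPAC low light the low count came without bPAC dark 2. In bPAC high light it was 1098 without bPAC dark 2, 1385 without bPAC high light 1 and 937 without bPAC high light 2. Between the bPAC doses it was 560 without bPAC low light 4, and 189, 515 and 555 without bPAC high light 1, 2 or 3. No paired analysis was possible because the labels give no replicate numbers shared between groups.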
